A study of Mus musculus with 9 samples.

Results

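Heparan sulphate proteoglycans, the sulphotransferases that decorate their sugar chains and the sulphatases that trim them were followed across 3 cell populations sorted from mouse lung. The genes were taken by symbol: every row of the count table whose name begins with Gpc, Sdc, Ndst, Hs3st, Hs6st, Sulf or Chst followed by a digit, which gave 38 genes of 19348. Of these, 25 encode heparan sulphate core proteins or enzymes of the heparan sulphate chain. The other 13 are Chst genes, whose enzymes sulphate chondroitin, dermatan or other sugars rather than heparan sulphate, so the set is wider than heparan sulphate alone. Counts were high enough for testing in 34 of the 38.

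Heparan sulphate is a long, sulphated sugar chain carried by a few core proteins. Glypicans hold it at the cell surface through a lipid anchor and syndecans through a membrane-spanning segment, and the chain binds growth factors, morphogens, chemokines and matrix proteins. Its binding properties depend on where sulphate is placed: Ndst enzymes start the modification by replacing acetyl groups with sulphate on glucosamine, Hs6st and Hs3st enzymes add sulphate at other positions of the sugar, and the extracellular Sulf enzymes remove 6-O-sulphate again. In lung, these chains are part of the endothelial surface coat and of the interstitial matrix, and they shape fibroblast growth factor, hedgehog, Wnt and bone morphogenetic protein signalling.

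All libraries came from C57BL/6J mice of genotype Col1_GFP;Foxf1_tdTomato, so that every population carried both reporters. DBL cells expressed type 1 collagen and Foxf1, TDonly cells expressed Foxf1 alone, and ColGFP cells expressed type 1 collagen alone, as the sorted subsets are described. DBL has replicates 1, 3 and 4, and TDonly and ColGFP each have replicates 1, 2 and 3, for 9 libraries. The sources used here do not give the age of the mice, how many were pooled per library, the regulatory elements behind the reporters or the gates of the sort. Nothing states that the replicates came from separate animals, so p-values measure the spread between these libraries, which may be technical.

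The libraries held 17820969 to 26147475 counts each. The transcript of Foxf1 reached 113, 87.3 and 103 counts per 1000000 (CPM, with libraries scaled by edgeR's TMM factors) in DBL cells, 279, 231 and 229 CPM in TDonly cells and 61.9, 62.5 and 54.5 CPM in ColGFP cells. Col1a1 reached 9539, 12241 and 13224 CPM in DBL cells, 373, 1493 and 1566 CPM in TDonly cells and 4939, 9593 and 9181 CPM in ColGFP cells, so the single-reporter populations were not free of the other sort gene's transcript. Summed over 10 endothelial markers, the level was 3660.2 to 4564 CPM in DBL cells, 10525 to 11537 CPM in TDonly cells and 667 to 950.0 CPM in ColGFP cells, and all 10 markers passed the test in each of the 3 comparisons. The sum over 8 alveolar fibroblast markers was 1961 to 2842 CPM in DBL cells, 457 to 1209.6 CPM in TDonly cells and 7325 to 7543 CPM in ColGFP cells. Over 7 adventitial fibroblast markers it was 5500.1 to 7802 CPM in DBL cells, 317 to 965 CPM in TDonly cells and 1431 to 4269 CPM in ColGFP cells. Of these 7, only 2 passed as higher in DBL than in ColGFP cells. Between DBL and TDonly cells 6 were higher and 1 lower in DBL, and between TDonly and ColGFP cells 1 was higher and 6 lower in TDonly. Epithelial and leukocyte markers were present in all 3 populations, and no marker of any list was at 0 in a population. Replicate 1 of each population stood apart from the other libraries. The chi-square per degree of freedom was 54.5 to 101 for pairs of libraries that include a replicate 1, against 5.34 to 15.1 for the other pair of each population. In TDonly replicate 1, Col1a1 was lower than in the other TDonly libraries.

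**Figure D1:**
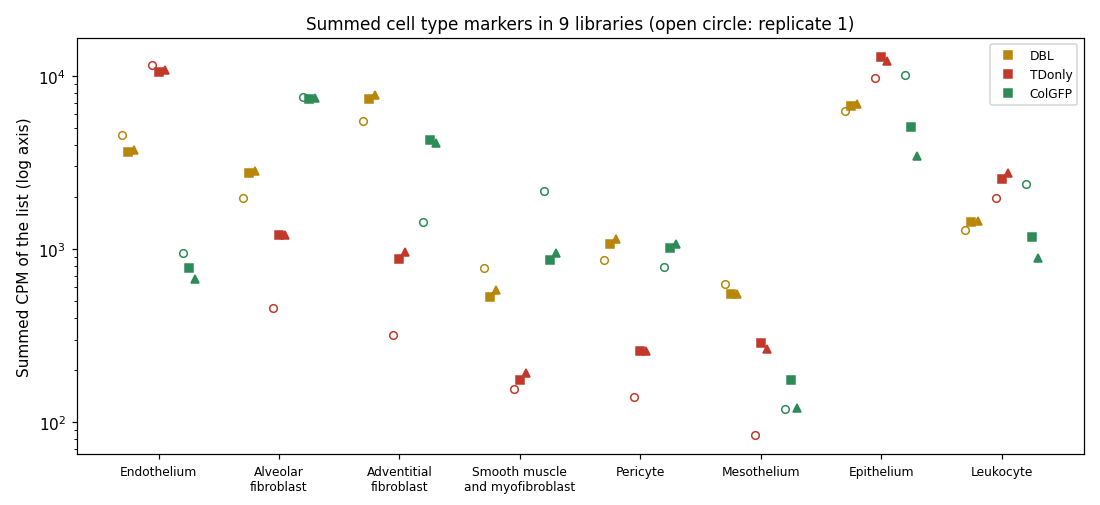
Summed CPM of each cell type marker list on a log axis, with 1 point per library (replicate 1 as an open circle) and the populations in the order DBL, TDonly, ColGFP. Endothelial sums were highest in the 3 TDonly libraries (10525 to 11537 CPM) and lowest in the 3 ColGFP libraries (667 to 950.0 CPM), with the DBL libraries between them.

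Many of the genes that could be tested differed between populations, as did many genes of the whole table. Of the 34, 10 passed in all 3 comparisons, 9 in 2, 7 in 1 and 8 in none (edgeR's quasi-likelihood test, adjusted p under 0.05, Benjamini-Hochberg over all 15550 genes tested). Over all genes tested, 9.02% passed in all 3 comparisons, and 45.5% passed in the comparison of TDonly with ColGFP cells taken by itself. The shares of all genes passing in 2, 1 or none were not counted. Between DBL and ColGFP cells, 5 were higher and 6 lower in DBL, which is 11 of 34 where 14.5% of all genes tested passed (8.04% higher and 6.47% lower). Between DBL and TDonly cells, 14 were higher and 6 lower in DBL, where 29.9% of all genes passed (17.3% higher and 12.6% lower). Between TDonly and ColGFP cells, 8 were higher and 16 lower in TDonly, where 45.5% of all genes passed (21.6% higher and 24% lower). The median log2 fold change over the 34 genes was 0.22 for DBL over ColGFP, beside -0.0032 over all genes tested. It was 0.26 for DBL over TDonly, beside -0.04, and -0.33 for TDonly over ColGFP, beside 0.02. With library totals in place of TMM factors, which put the median log2 fold change of all genes at 0.16 between TDonly and ColGFP cells, the split in that comparison was 11 higher and 13 lower. Over all genes it was then 4363 higher and 2998 lower, against 3355 and 3727 with TMM factors. DBL and ColGFP libraries did not overlap for 20 of the 34 genes, where 33.3% of all genes showed no overlap. For DBL and TDonly libraries it was 26 of 34, where the share of all genes was 47%, and for TDonly and ColGFP libraries 26 of 34, where it was 56.1%. Single libraries moved some of these counts, and the counts over all genes tested did not always move the same way. Without TDonly replicate 1, Chst4, Hs3st6 and Hs6st2 gained a call as higher in TDonly than in ColGFP cells and Gpc2 lost it. Over all genes, the number so called fell from 3355 to 3080. In the cases that follow, both counts moved the same way. Without TDonly replicate 1, DBL exceeded ColGFP cells in 8 genes, beside 1463 of all genes (1250 with all 9 libraries). Without DBL replicate 4, 3 were lower in DBL than in TDonly cells, beside 1155 of all genes (1965 with all 9). Without ColGFP replicate 2, 5 were higher in TDonly than in ColGFP cells, beside 2439 of all genes (3355 with all 9). In sorted bulk samples, fewer cells of a type and less RNA per cell cannot be told apart.

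Of the 34 genes, 10 passed in all 3 comparisons (29.4%, beside 9.02% of all genes tested), and in all 10 DBL cells held the middle level. That position is common to the table: DBL cells were in the middle for 1358 of the 1403 genes, or 96.8%, that passed in all 3 comparisons. For 6 of the 10 genes the order was ColGFP above DBL above TDonly (Gpc1, Gpc4, Sdc4, Hs6st3, Chst3 and Chst8), and for the other 4 it was TDonly above DBL above ColGFP (Sdc3, Hs3st1, Chst1 and Chst11). In all 10, the libraries of the 3 populations did not overlap, as in 98.8% of the 1403. The endothelial and alveolar fibroblast marker sums given above also had DBL libraries between the other populations, and their part in the order of these genes was not tested. Away from this order stood Chst4, which was the only one of the 34 genes to pass as higher in DBL cells against both other populations.

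**Figure D2:**
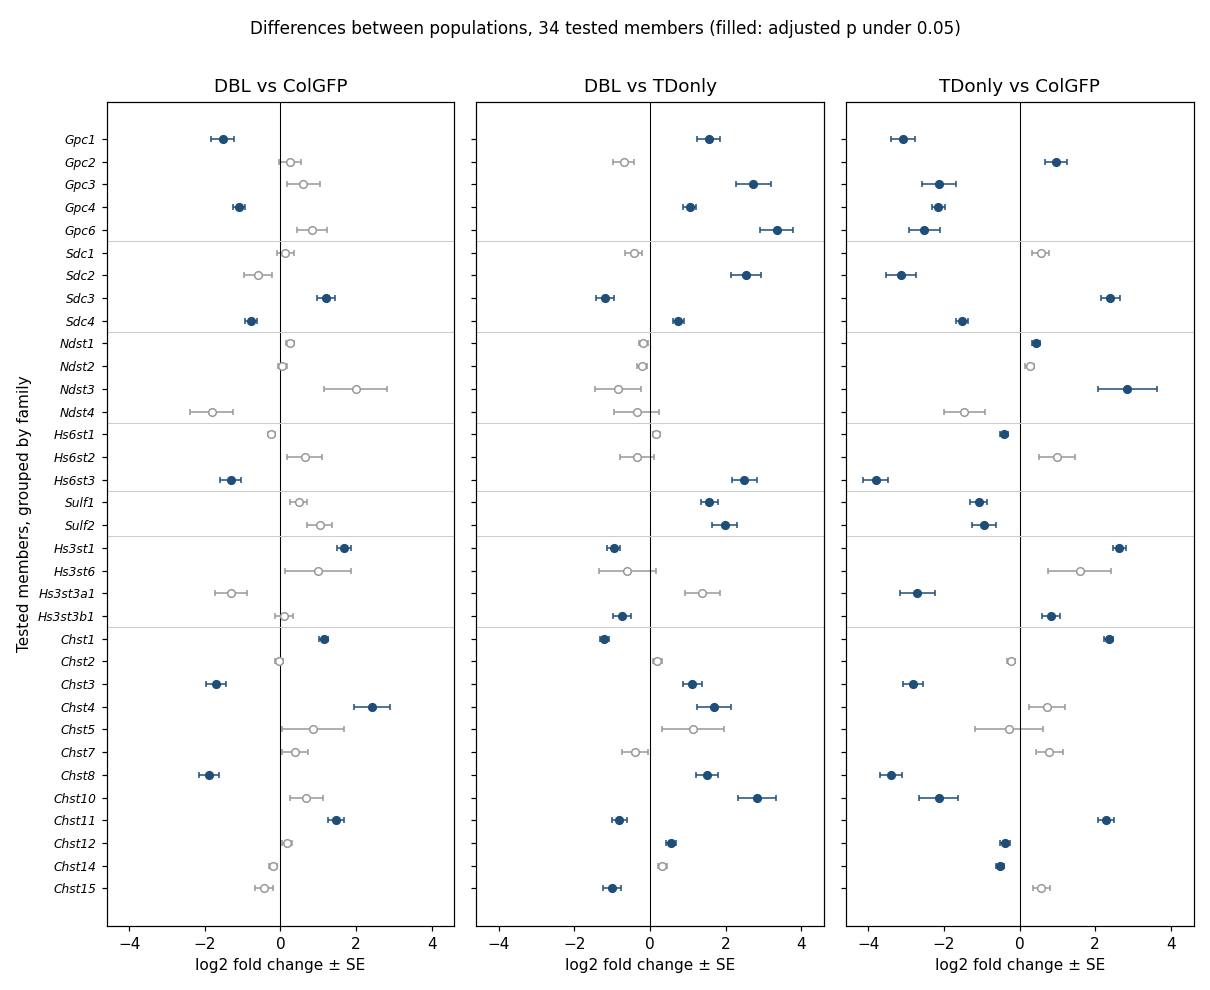
Log2 fold change of the 34 tested genes in each comparison, filled where the adjusted p was under 0.05, with the first-named population over the second and bars of 1 SE (n = 3 libraries a population). Positive values are higher in the first-named population. Gpc6 reached 3.35 for DBL over TDonly, while Hs6st3 reached -3.81 and Chst8 -3.40 for TDonly over ColGFP.

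Transcripts of Gpc1, Gpc3, Gpc4 and Gpc6 were higher in both collagen-reporter populations than in TDonly cells. Of the 5 glypican genes tested, these 4 were higher in DBL than in TDonly cells, and the same 4 were lower in TDonly than in ColGFP cells. Gpc1 and Gpc4 were lower in DBL than in ColGFP cells. Gpc3, whose loss in humans causes the overgrowth disorder Simpson-Golabi-Behmel syndrome and whose product binds hedgehog ligands, was the highest of the family. Gpc3 and Gpc4 lie side by side on the X chromosome, both on the minus strand. In the mm10 build, Gpc4 spans chrX:52053021-52165252 and Gpc3 spans chrX:52272426-52613950, with 107.2 kb and 0 protein-coding genes between them.

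The 250 bases upstream of the RefSeq start sites of these neighbours are printed here because the pair differ in their order across the populations although they adjoin each other. The Gpc4 window lies inside the Gpc4 span given above, which comes from GENCODE M21 and reaches further upstream than the RefSeq start. It is therefore upstream of the RefSeq start only. They come from RefSeq (GRCm38.p6) at chrX:52613975-52614224 for Gpc3 and chrX:52164924-52165173 for Gpc4, both minus strand, read 5′ to 3′ toward the start site. Capitals mark the GC box, searched as the letters GGGCGG on both strands, so that a match on the other strand reads CCGCCC.
Gpc3: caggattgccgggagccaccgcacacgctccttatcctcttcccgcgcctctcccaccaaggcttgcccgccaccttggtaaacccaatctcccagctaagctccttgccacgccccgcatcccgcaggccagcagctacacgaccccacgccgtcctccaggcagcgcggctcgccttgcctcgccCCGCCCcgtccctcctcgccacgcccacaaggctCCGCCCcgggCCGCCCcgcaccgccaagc
Gpc4: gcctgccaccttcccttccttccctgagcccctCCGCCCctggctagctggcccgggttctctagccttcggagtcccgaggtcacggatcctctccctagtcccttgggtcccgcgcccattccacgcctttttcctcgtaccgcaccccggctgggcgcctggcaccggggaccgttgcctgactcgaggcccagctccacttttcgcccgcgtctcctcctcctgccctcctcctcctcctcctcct
The Gpc3 window holds 3 such matches and the Gpc4 window 1, with a G and C content of 71.6% in the Gpc3 window and 68.4% in the Gpc4 window. The forkhead core (letters TAAACA), the ETS core (letters GGAAGT) and the TATA box (letters TATAAA) were also searched on both strands, and none of them lies in the Gpc3 window or the Gpc4 window.

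Gpc3 had 988, 1072 and 1170.4 CPM in DBL cells, 51.1, 216 and 219 CPM in TDonly cells, and 545, 810.1 and 771 CPM in ColGFP cells. The 3 DBL libraries were all above the 3 TDonly libraries, and they also lay above the 3 ColGFP libraries. Gpc3 had a log2 fold change of 2.73 ± 0.46 (adjusted p = 0.00174) for DBL over TDonly and -2.13 ± 0.45 (adjusted p = 0.00377) for TDonly over ColGFP, where ± gives the standard error. For DBL over ColGFP it was 0.60 ± 0.44 (adjusted p = 0.433), which did not pass. It did pass without TDonly replicate 1 (adjusted p = 0.0228) and with only those 2 populations in the fit (adjusted p = 0.0439). Of the TDonly libraries, replicate 1 was the low one for Gpc3, as it was for Col1a1.

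Gpc6 (chr14:116925315-117976544, plus strand), a glypican whose loss in humans gives the short-limbed skeletal disorder omodysplasia, had the largest fold change of the family between DBL and TDonly cells. Gpc6 had 130.0, 205 and 203 CPM in DBL cells, 7.21, 20.6 and 24.9 CPM in TDonly cells, and 69.1, 118 and 115 CPM in ColGFP cells. The DBL libraries lay above all libraries of both other populations. Its log2 fold change was 3.35 ± 0.43 (adjusted p = 0.000409) for DBL over TDonly and -2.52 ± 0.42 (adjusted p = 0.000855) for TDonly over ColGFP. For DBL over ColGFP it was 0.83 ± 0.39 (adjusted p = 0.212), short of the threshold, which it passed without TDonly replicate 1 (adjusted p = 0.0364).

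Gpc1 (chr1:92831645-92860779, plus strand) encodes a glypican that takes part in fibroblast growth factor signalling. Gpc1 had 27.2, 25.4 and 31.3 CPM in DBL cells, 4.48, 12.8 and 11.5 CPM in TDonly cells, and 88.6, 72.8 and 80.5 CPM in ColGFP cells. The ColGFP libraries were highest and the TDonly libraries lowest, with no overlap. Gpc1 fell in DBL against ColGFP cells by a log2 fold change of -1.53 ± 0.30 (adjusted p = 0.00802), and it was higher in DBL than in TDonly cells, at 1.55 ± 0.31 (adjusted p = 0.00424). Between TDonly and ColGFP cells the log2 fold change of Gpc1 was -3.08 ± 0.32 (adjusted p = 4.46e-05). On the opposite strand, exons of Ankmy1 overlap 18.9% of the Gpc1 exon bases, and reads of the 2 genes cannot be separated without the strand setting.

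Gpc4 had 23.0, 25.1 and 23.5 CPM in DBL cells, 8.69, 13.5 and 12.5 CPM in TDonly cells, and 59.4, 46.6 and 47.9 CPM in ColGFP cells. Gpc4, a glypican linked to fibroblast growth factor and Wnt signalling, had the same order as Gpc1, and the 3 populations did not overlap. Its log2 fold change was -1.10 ± 0.16 (adjusted p = 0.00182) for DBL over ColGFP and 1.05 ± 0.17 (adjusted p = 0.00124) for DBL over TDonly. The value for TDonly over ColGFP was -2.15 ± 0.17 (adjusted p = 8.25e-06). Neighbouring Gpc3 and Gpc4 therefore shared a low level in TDonly cells, while the highest mean of Gpc3 was in DBL cells and that of Gpc4 in ColGFP cells. Gpc2, known from developing neurons in rodents, stayed at 1.84 ± 0.245 CPM in DBL cells, 3.01 ± 0.233 CPM in TDonly cells and 1.53 ± 0.601 CPM in ColGFP cells (SD, n = 3 each). Gpc2 passed only as higher in TDonly than in ColGFP cells, with a log2 fold change of 0.96 ± 0.29 (adjusted p = 0.0236). That call was lost when any of 4 libraries was left out, with adjusted p-values of 0.0505 to 0.0898: TDonly replicates 1 and 2 and ColGFP replicates 1 and 2. Exons of Gm43720 overlap 55.6% of the Gpc2 exon bases on the same strand, so these counts are uncertain.

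Summed per kilobase of exon, glypican transcripts came to 443 ± 40.1 CPM per kb in DBL cells, 69.9 ± 38.9 in TDonly cells and 315 ± 53.4 in ColGFP cells (SD, n = 3 each). Gpc3 made up 90.4% ± 0.943 of that sum in DBL cells, 83.7% ± 6.77 in TDonly cells and 83.4% ± 3.02 in ColGFP cells. The other glypicans together supplied the rest. The alveolar and adventitial fibroblast marker sums given above, like the glypican sum, were low in TDonly cells. All 8 alveolar and 6 of the 7 adventitial markers passed as lower in TDonly than in ColGFP cells, and 1 adventitial marker passed as higher. Replicate 1 was the lowest TDonly library for both marker sums and for Gpc1, Gpc3, Gpc4 and Gpc6. How far the marker levels account for the glypican levels was not tested.

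**Figure D3:**
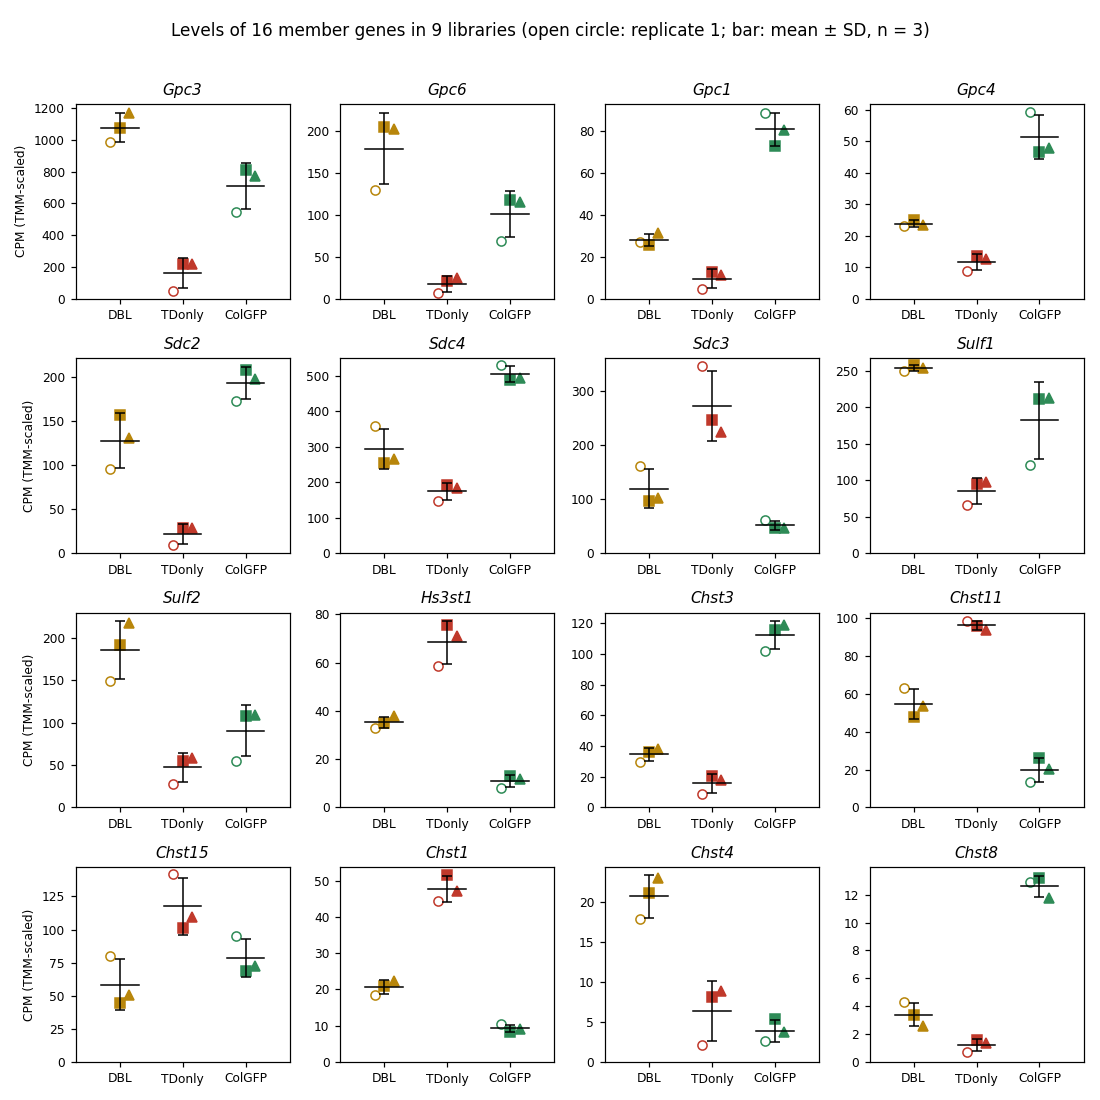
CPM of the 16 genes that differed by at least 2-fold and reached 10 CPM, on linear axes from 0, with 1 point per library (replicate 1 as an open circle), a bar at the mean and whiskers of 1 SD, and the populations in the order DBL, TDonly, ColGFP. Gpc3 and Gpc6 were highest in the DBL libraries, Sdc3, Hs3st1, Chst1 and Chst11 in the TDonly libraries, and Gpc1, Gpc4, Sdc4, Chst3 and Chst8 in the ColGFP libraries.

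The 4 syndecans did not move as a group. Sdc3, best known from neurons and first described there as N-syndecan, was highest in TDonly cells, whereas Sdc2, the syndecan typical of mesenchymal cells, and Sdc4, a widely expressed syndecan of focal adhesions, were highest in ColGFP cells. Sdc1, the main syndecan of epithelia and plasma cells, passed in no comparison. Sdc3 (chr4:130792537-130826319, plus strand) and Sdc4 (chr2:164424247-164443887, minus strand) ran in opposite directions in every comparison, and the 250 bases upstream of their RefSeq start sites are printed for that reason. The windows lie at chr4:130792287-130792536 (plus strand) for Sdc3 and chr2:164443189-164443438 (minus strand) for Sdc4 in GRCm38.p6, and capitals mark the GC box as before. Like that of Gpc4, the Sdc4 window lies inside the gene span given above, so it is upstream of the RefSeq start only.
Sdc3: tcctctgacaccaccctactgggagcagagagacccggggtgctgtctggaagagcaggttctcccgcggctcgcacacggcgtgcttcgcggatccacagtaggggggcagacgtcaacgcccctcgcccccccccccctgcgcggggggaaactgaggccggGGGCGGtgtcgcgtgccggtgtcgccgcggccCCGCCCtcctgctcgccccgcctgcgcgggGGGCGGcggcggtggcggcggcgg
Sdc4: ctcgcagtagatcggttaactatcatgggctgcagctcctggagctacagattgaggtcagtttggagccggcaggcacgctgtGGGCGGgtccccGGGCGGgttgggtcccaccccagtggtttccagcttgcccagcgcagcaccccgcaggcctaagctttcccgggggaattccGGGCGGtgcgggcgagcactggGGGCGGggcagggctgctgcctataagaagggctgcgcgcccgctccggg
The GC box occurred 3 times in the Sdc3 window and 4 times in the Sdc4 window, with a G and C content of 76.4% for Sdc3 and 68% for Sdc4. Neither window holds the forkhead core, the ETS core or the TATA box on either strand. RefSeq promoters were matched for 31 of the 38 genes, 35 windows in all. The GC box occurred in 25 of the 35, where 32.7% of all 32851 promoter windows of this length hold it. The forkhead core occurred in 2 of the 35, against 12% of all windows, the ETS core in 3, against 19.7%, and the TATA box in 3, against 12.4%.

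Sdc3 had 160.4, 95.4 and 101 CPM in DBL cells, 345, 245 and 223 CPM in TDonly cells, and 61.4, 46.6 and 46.1 CPM in ColGFP cells. Every TDonly library was above every DBL library, and every DBL library above every ColGFP library. Sdc3 rose in DBL against ColGFP cells with a log2 fold change of 1.21 ± 0.24 (adjusted p = 0.00779) and fell against TDonly cells with -1.19 ± 0.23 (adjusted p = 0.00407). For TDonly over ColGFP it was 2.40 ± 0.24 (adjusted p = 3.86e-05). The 10 endothelial markers had the same order, with sums of 3660.2 to 4564 CPM in DBL cells, 10525 to 11537 CPM in TDonly cells and 667 to 950.0 CPM in ColGFP cells; their part in the Sdc3 difference was not tested.

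Sdc4 had 358, 255 and 266 CPM in DBL cells, 147, 193 and 183 CPM in TDonly cells, and 531, 489 and 494 CPM in ColGFP cells. This is the reverse order, again with no overlap. The log2 fold change of Sdc4 was -0.78 ± 0.15 (adjusted p = 0.00771) for DBL over ColGFP, 0.75 ± 0.15 (adjusted p = 0.00470) for DBL over TDonly and -1.53 ± 0.15 (adjusted p = 3.63e-05) for TDonly over ColGFP. The first of these calls was lost without DBL replicate 4, at an adjusted p of 0.0515.

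Sdc2 had 95.2, 157 and 131 CPM in DBL cells, 8.69, 28.7 and 28.6 CPM in TDonly cells, and 174, 209 and 199 CPM in ColGFP cells. Sdc2 (chr15:32920723-33034935, plus strand) was clearly lower in every TDonly library than in any other, and the DBL and ColGFP libraries did not overlap, with ColGFP above. Its log2 fold change was 2.54 ± 0.39 (adjusted p = 0.00106) for DBL over TDonly and -3.14 ± 0.40 (adjusted p = 0.000167) for TDonly over ColGFP. For DBL over ColGFP it was -0.60 ± 0.37 (adjusted p = 0.350), which did not pass, though it did without TDonly replicate 1 (adjusted p = 0.0345). Sdc1 had 84.3, 84.9 and 89.4 CPM in DBL cells, 105, 121 and 123 CPM in TDonly cells, and 113, 71.1 and 52.2 CPM in ColGFP cells. ColGFP replicate 1 was above all DBL libraries for Sdc1 and ColGFP replicates 2 and 3 were below them, and without ColGFP replicate 1 the gene passed as higher in DBL than in ColGFP cells (adjusted p = 0.0407), lower in DBL than in TDonly cells (0.0412) and higher in TDonly than in ColGFP cells (0.000889). The sum over 9 epithelial markers, 6282 to 6911 CPM in DBL cells, 9721 to 12917 CPM in TDonly cells and 3437 to 10112 CPM in ColGFP cells, was likewise highest in replicate 1 among the ColGFP libraries. So were the endothelial, alveolar fibroblast, smooth muscle and leukocyte sums, at 950.0, 7543, 2175 and 2366 CPM in that library. None of the 9 epithelial markers passed between DBL cells and either other population, and 5 passed as higher in TDonly than in ColGFP cells. The part of any of these markers in the Sdc1 level was not tested.

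Per kilobase of exon, the syndecan sum was 194 ± 19.6 CPM per kb in DBL cells, 150.4 ± 5.72 in TDonly cells and 282 ± 13.6 in ColGFP cells. The sum was highest in ColGFP cells and lowest in TDonly cells. Sdc4 contributed 59.0% ± 5.29 in DBL cells, 45.4% ± 4.91 in TDonly cells and 70.2% ± 1.14 in ColGFP cells. Sdc3 contributed 10.1% ± 1.97 in DBL cells, 30.2% ± 8.14 in TDonly cells and 3.03% ± 0.362 in ColGFP cells. The share of Sdc2 was 19.1% ± 6.07 in DBL cells, 4.11% ± 2.09 in TDonly cells and 19.5% ± 2.60 in ColGFP cells.

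**Figure D4:**
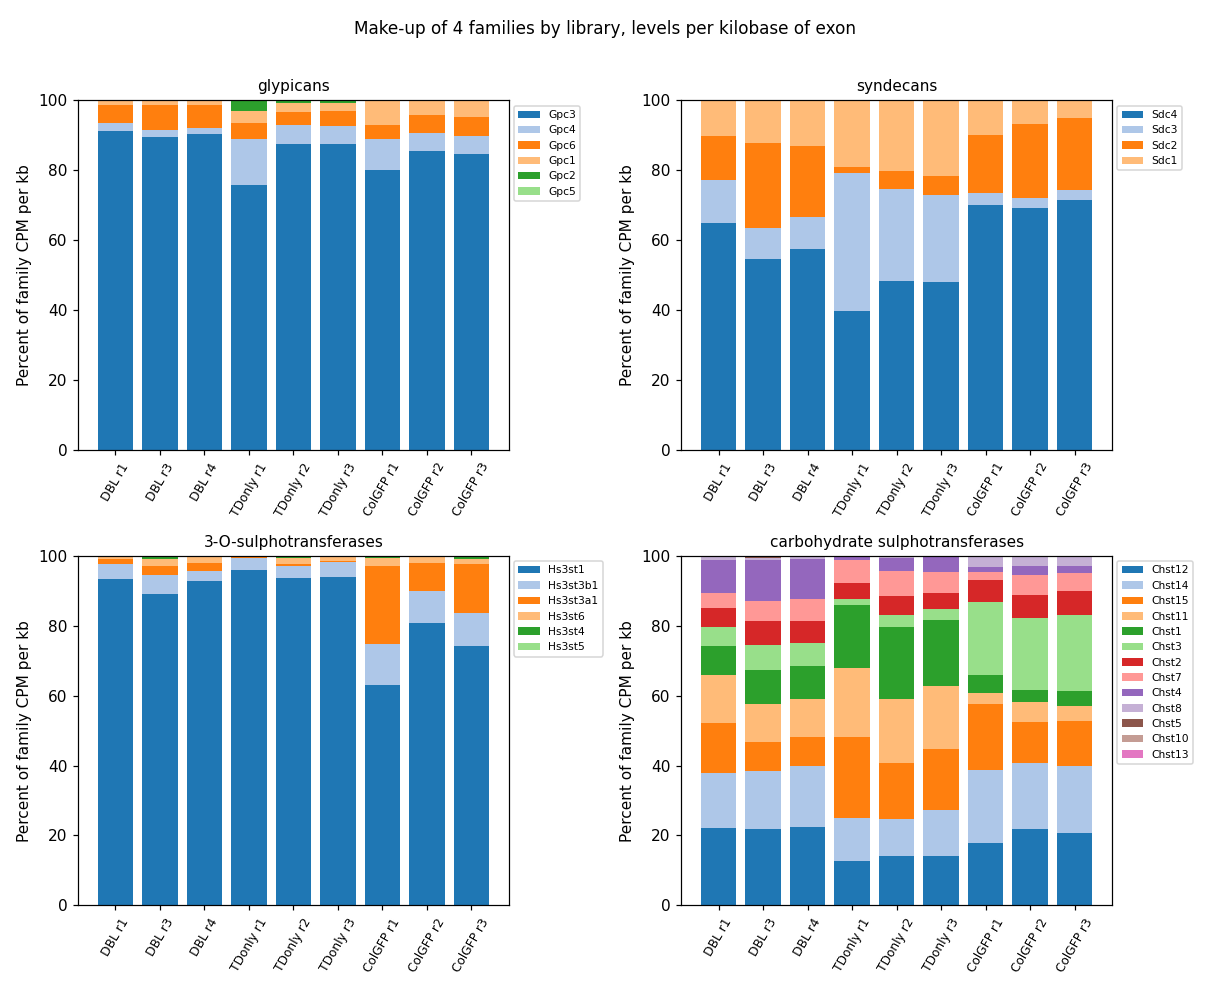
Share of each gene in its family's summed CPM per kb of exon, in percent, for 4 families, with 1 stacked bar per library in the order DBL, TDonly, ColGFP. Gpc3 made up most of the glypican sum in each population (a mean of 90.4% in DBL, 83.7% in TDonly and 83.4% in ColGFP cells), while the mean Sdc3 share of the syndecan sum was 10.1% in DBL, 30.2% in TDonly and 3.03% in ColGFP cells.

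Of the enzymes that begin sulphation, none of the 4 Ndst genes passed between DBL cells and either other population (edgeR). Of all genes tested, 14.5% passed between DBL and ColGFP cells and 29.9% between DBL and TDonly cells. A set of 4 genes is too small to be told apart from those shares. At an unadjusted p under 0.05, 2 of the 4 differed between DBL and ColGFP cells and 0 between DBL and TDonly cells. With DESeq2, Ndst4 was lower in DBL than in ColGFP cells (adjusted p = 0.0289), and none of the 4 passed between DBL and TDonly cells. Ndst1, the main N-deacetylase/N-sulphotransferase of most tissues, was the most abundant enzyme gene of the heparan sulphate set per kilobase. Ndst1 had 325, 309.8 and 324 CPM in DBL cells, 377, 367 and 341 CPM in TDonly cells, and 313, 248 and 242 CPM in ColGFP cells. The DBL libraries for Ndst1 lay below all TDonly libraries and overlapped the ColGFP libraries. It passed as higher in TDonly than in ColGFP cells, with a log2 fold change of 0.43 ± 0.12 (adjusted p = 0.0123), a call lost without ColGFP replicate 2 or 3 (adjusted p = 0.0688 and 0.0657). Without ColGFP replicate 1, Ndst1 was higher in DBL than in ColGFP cells (adjusted p = 0.0169). Ndst1 supplied 84.7% ± 0.863 of the family's CPM per kb in DBL cells, 84.4% ± 0.822 in TDonly cells and 82.7% ± 0.315 in ColGFP cells. Ndst2, best known from the heparin of mast cells, averaged 31.4 ± 2.15 CPM in DBL cells, 36.5 ± 4.04 in TDonly cells and 30.3 ± 4.14 in ColGFP cells and passed in no comparison. Ndst3 and Ndst4 averaged 1.04 CPM or less in every population. Ndst3 passed as higher in TDonly than in ColGFP cells (adjusted p = 0.0144), with means of 0.503 CPM in TDonly cells and 0.0611 CPM in ColGFP cells, and Ndst4 passed in none. For Ndst4, DBL over ColGFP passed in 3 of the 21 other settings, without DBL replicate 4 (adjusted p = 0.0309) among them, and TDonly over ColGFP passed in 6, at adjusted p-values of 0.0343 without DBL replicate 4 to 0.0476 without DBL replicate 1.

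Transcripts for 6-O-sulphation and for its removal were differently placed. Hs6st1, the main 6-O-sulphotransferase of these cells by level, averaged 42.8 ± 4.74 CPM in DBL cells, 38.2 ± 1.85 CPM in TDonly cells and 50.7 ± 2.18 CPM in ColGFP cells. Hs6st1 passed only as lower in TDonly than in ColGFP cells, at a log2 fold change of -0.41 ± 0.10 (adjusted p = 0.00822), and that call was lost with library totals in place of TMM factors (adjusted p = 0.0968). Hs6st3 had 2.02, 2.88 and 3.23 CPM in DBL cells, 0.312, 0.721 and 0.396 CPM in TDonly cells, and 6.53, 6.90 and 6.84 CPM in ColGFP cells. Its libraries formed 3 separate levels, ColGFP above DBL above TDonly. For Hs6st3, a second 6-O-sulphotransferase, the log2 fold change was -1.32 ± 0.28 (adjusted p = 0.0112) for DBL over ColGFP, 2.49 ± 0.32 (adjusted p = 0.000432) for DBL over TDonly and -3.81 ± 0.32 (adjusted p = 1.31e-05) for TDonly over ColGFP. Hs6st3 made up 16.8% ± 3.78 of the family's CPM per kb in DBL cells, 3.71% ± 1.41 in TDonly cells and 30.0% ± 1.47 in ColGFP cells. Hs6st2 averaged between 0.811 and 1.61 CPM and passed in no comparison.

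Both 6-O-endosulphatases, Sulf1 and Sulf2, which edit heparan sulphate outside the cell and so alter its binding of growth factors, were higher in DBL than in TDonly cells. Sulf1 had 249, 257 and 254 CPM in DBL cells, 65.2, 94.0 and 97.6 CPM in TDonly cells, and 121, 211 and 213 CPM in ColGFP cells. All DBL libraries of Sulf1 (chr1:12692277-12861192, plus strand) were above all libraries of the other populations. Its log2 fold change was 1.57 ± 0.22 (adjusted p = 0.000698) for DBL over TDonly, -1.09 ± 0.22 (adjusted p = 0.00296) for TDonly over ColGFP and 0.48 ± 0.22 (adjusted p = 0.196) for DBL over ColGFP, the last not passing. Sulf2 had 149, 191 and 217 CPM in DBL cells, 27.5, 55.2 and 58.5 CPM in TDonly cells, and 55.3, 108 and 109 CPM in ColGFP cells. The DBL libraries of Sulf2 (chr2:166073089-166155663, minus strand) were again above all others, and the TDonly and ColGFP libraries overlapped. For DBL over TDonly the log2 fold change of Sulf2 was 1.98 ± 0.33 (adjusted p = 0.00165). For DBL over ColGFP it was 1.04 ± 0.32 (adjusted p = 0.0631), just short of the threshold, and it passed without TDonly replicate 1 (adjusted p = 0.0171) and with only those 2 populations in the fit (adjusted p = 0.0324). For TDonly over ColGFP it was -0.94 ± 0.32 (adjusted p = 0.0384), a call that was lost (adjusted p = 0.0542 to 0.115) on leaving out any of 5 libraries, namely TDonly replicates 1 and 2, ColGFP replicates 2 and 3, and DBL replicate 3. That call was also lost with library totals in place of TMM factors (adjusted p = 0.0801) and with only those 2 populations in the fit (adjusted p = 0.0650).

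Summed per kilobase, the sulphatase transcripts came to 54.1 ± 6.12 CPM per kb in DBL cells, 15.6 ± 4.47 in TDonly cells and 31.5 ± 9.84 in ColGFP cells. The corresponding sums of the Hs6st genes were 9.48 ± 0.903 CPM per kb in DBL cells, 7.37 ± 0.558 in TDonly cells and 13.2 ± 0.323 in ColGFP cells. The sulphatase sum was thus highest in DBL cells, and the sulphotransferase sum in ColGFP cells; transcript levels do not give enzyme activity. The adventitial fibroblast marker sum was also highest in DBL cells, at 5500.1 to 7802 CPM, against 317 to 965 CPM in TDonly cells and 1431 to 4269 CPM in ColGFP cells. Of the 7 markers, 2 passed as higher in DBL than in ColGFP cells, and 6 were higher and 1 lower in DBL than in TDonly cells. The mesothelial sum was highest in DBL cells as well, and 5 of its 6 markers passed as higher against each other population. ColGFP replicate 1 was the lowest ColGFP library for the adventitial sum, and also for the mesothelial and pericyte sums (119 and 790 CPM). That library was also the lowest ColGFP library for Sulf1, Sulf2, Gpc3 and Gpc6. The part of these markers in the levels of these genes was not tested.

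The 3-O-sulphotransferases, which place the rarest sulphate group of the chain, were dominated by Hs3st1 (chr5:39613935-39755475, minus strand), the enzyme that makes the antithrombin-binding site of heparan sulphate. Hs3st1 had 32.8, 34.9 and 37.8 CPM in DBL cells, 58.5, 75.6 and 71.0 CPM in TDonly cells, and 8.0, 13.0 and 11.9 CPM in ColGFP cells. The TDonly libraries were all highest and the ColGFP libraries all lowest. Hs3st1 rose in DBL against ColGFP cells with a log2 fold change of 1.68 ± 0.18 (adjusted p = 0.000247) and fell against TDonly cells with -0.96 ± 0.17 (adjusted p = 0.00223). TDonly over ColGFP gave 2.64 ± 0.18 (adjusted p = 3.64e-06). This is the order of the endothelial marker sums given above, whose part in it was not tested. Hs3st1 made up 91.7% ± 2.22 of the family's CPM per kb in DBL cells, 94.5% ± 1.24 in TDonly cells and 72.7% ± 8.96 in ColGFP cells.

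The remaining 3-O-sulphotransferases were low. Hs3st3a1, whose enzyme makes a site that herpes simplex virus glycoprotein D binds, went against Hs3st1. Hs3st3a1 had 0.915, 1.89 and 1.74 CPM in DBL cells, 0.312, 0.841 and 0.572 CPM in TDonly cells, and 5.05, 2.24 and 3.97 CPM in ColGFP cells. Hs3st3a1 fell in TDonly against ColGFP cells with a log2 fold change of -2.71 ± 0.46 (adjusted p = 0.00105), and neither comparison with DBL cells passed (adjusted p = 0.0715 for DBL over ColGFP and 0.0505 for DBL over TDonly). Both lay near the threshold: of 21 other settings, each changing 1 choice, DBL over TDonly passed in 9 (with DESeq2 at an adjusted p of 0.0181, and without DBL replicate 1, ColGFP replicate 1, ColGFP replicate 2 or TDonly replicate 2 among the others) and DBL over ColGFP in 3 (with DESeq2 at 0.0256 and without TDonly replicate 1 at 0.0433 among them). Exons of F930015N05Rik overlap 32.9% of its exon bases, so part of these counts is uncertain. Hs3st3b1, a close relative of Hs3st3a1 on the same chromosome, averaged 3.51 ± 0.982 CPM in DBL cells, 5.87 ± 1.19 CPM in TDonly cells and 3.29 ± 0.0783 CPM in ColGFP cells. It was lower in DBL than in TDonly cells (log2 fold change -0.74 ± 0.24, adjusted p = 0.0439) and higher in TDonly than in ColGFP cells (log2 fold change 0.84 ± 0.25, adjusted p = 0.0198). Each of these calls was lost when single libraries were left out: the first in 7 of 9 cases (all but DBL replicate 3 and TDonly replicate 1), at adjusted p-values up to 0.175, and the second without ColGFP replicate 2 or 3 or TDonly replicate 2 or 3, at up to 0.0684. Hs3st6 averaged 0.512 CPM or less in every population and passed in no comparison. In the heparan sulphate set as a whole, 22 of 25 genes were tested. Of these 22, 2 were higher and 4 lower in DBL than in ColGFP cells, 9 were higher and 3 lower in DBL than in TDonly cells, and 6 were higher and 11 lower in TDonly than in ColGFP cells. The shares passing were 27.3%, 54.5% and 77.3%, where 14.5%, 29.9% and 45.5% of all genes passed.

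The Chst genes were examined by the sugar their enzymes act on. Of 6 tested genes for chondroitin and dermatan sulphation, Chst3 and Chst11 passed in all 3 comparisons, in opposite directions. Chst3 (chr10:60181532-60219260, minus strand), the chondroitin 6-O-sulphotransferase whose loss in humans causes a skeletal dysplasia, was highest in ColGFP cells. Chst3 had 29.5, 35.8 and 38.0 CPM in DBL cells, 8.89, 20.6 and 18.2 CPM in TDonly cells, and 102, 115 and 119 CPM in ColGFP cells. All ColGFP libraries were above all DBL libraries, and all DBL above all TDonly libraries. Its log2 fold change was -1.70 ± 0.26 (adjusted p = 0.00203) for DBL over ColGFP, 1.12 ± 0.26 (adjusted p = 0.00916) for DBL over TDonly and -2.82 ± 0.27 (adjusted p = 2.62e-05) for TDonly over ColGFP.

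Chst11 (chr10:82985498-83195900, plus strand), a chondroitin 4-O-sulphotransferase, had the reverse order. Chst11 had 63.2, 47.6 and 53.5 CPM in DBL cells, 98.8, 96.0 and 94.0 CPM in TDonly cells, and 13.3, 26.0 and 20.3 CPM in ColGFP cells. The TDonly libraries were highest and the ColGFP libraries lowest, without overlap. The log2 fold change of Chst11 was 1.47 ± 0.21 (adjusted p = 0.00149) for DBL over ColGFP and 2.28 ± 0.21 (adjusted p = 2.38e-05) for TDonly over ColGFP. For DBL over TDonly it was -0.81 ± 0.20 (adjusted p = 0.0139), and this call was lost without DBL replicate 3 (adjusted p = 0.0597) or DBL replicate 4 (adjusted p = 0.0707). Of the Chst family's CPM per kb, Chst3 held 6.33% ± 0.805 in DBL cells, 2.63% ± 0.989 in TDonly cells and 21.2% ± 0.673 in ColGFP cells. Chst11 held 11.8% ± 1.60 in DBL cells, 18.8% ± 0.796 in TDonly cells and 4.36% ± 1.12 in ColGFP cells. The mean level per kilobase of the 6-O enzyme Chst3 was therefore above that of the 4-O enzyme Chst11 in ColGFP cells and below it in DBL and TDonly cells.

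Chst15 (chr7:132235780-132317228, minus strand) adds a further 6-O-sulphate to chondroitin that already carries 4-O-sulphate. Chst15 had 80.3, 44.4 and 50.3 CPM in DBL cells, 142, 101 and 109 CPM in TDonly cells, and 95.1, 68.8 and 72.2 CPM in ColGFP cells. Its TDonly libraries lay above all ColGFP and DBL libraries, while the DBL and ColGFP libraries overlapped. Chst15 was lower in DBL than in TDonly cells, with a log2 fold change of -1.01 ± 0.23 (adjusted p = 0.00926), a call lost without DBL replicate 4 (adjusted p = 0.0538). For TDonly over ColGFP it was 0.58 ± 0.23 (adjusted p = 0.0680) and for DBL over ColGFP -0.43 ± 0.23 (adjusted p = 0.278), and neither passed. Without DBL replicate 1, however, both did (adjusted p = 0.0195 for TDonly over ColGFP and 0.0426 for DBL over ColGFP), and without ColGFP replicate 1 the TDonly over ColGFP difference did (adjusted p = 0.0492). In all, TDonly over ColGFP passed in 8 of the 21 other settings, with DESeq2 (adjusted p = 0.0410) among them, and DBL over ColGFP in 3. The antisense gene Gm10584 overlaps 17.9% of its exon bases. Chst12, another 4-O-sulphotransferase and the highest Chst gene per kilobase in DBL cells, averaged 43.9 ± 3.41 CPM in DBL cells, 29.7 ± 2.33 in TDonly cells and 38.8 ± 6.63 in ColGFP cells. Chst12 was higher in DBL than in TDonly cells (log2 fold change 0.56 ± 0.13, adjusted p = 0.0110). It also passed as lower in TDonly than in ColGFP cells (log2 fold change -0.38 ± 0.13, adjusted p = 0.0420), and that call was lost when any library other than ColGFP replicate 1 was left out (adjusted p = 0.0513 to 0.127). Chst14, the dermatan 4-O-sulphotransferase, averaged 29.1 ± 2.76 CPM in DBL cells, 23.2 ± 2.51 in TDonly cells and 33.4 ± 0.789 in ColGFP cells and passed only as lower in TDonly than in ColGFP cells (log2 fold change -0.52 ± 0.11, adjusted p = 0.00359). For DBL over TDonly, Chst14 was just short of the threshold (adjusted p = 0.0515) and passed in 9 of the 21 other settings, without ColGFP replicate 1 or TDonly replicate 3 among them. Chst7, which acts on chondroitin and on other sugars, averaged 10.1 ± 2.32 CPM in DBL cells, 13.5 ± 1.16 in TDonly cells and 7.82 ± 3.86 in ColGFP cells and passed in no comparison. As higher in TDonly than in ColGFP cells, however, it passed in 4 of the 21 other settings. Library totals in place of TMM factors (adjusted p = 0.0395) and limma-voom (0.0442) were among them.

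The 4 genes for sulphation of galactose or N-acetylglucosamine include Chst4, whose enzyme, in mice, makes the sulphated ligands for L-selectin in lymph node venules. Chst4 had 17.8, 21.2 and 23.1 CPM in DBL cells, 2.07, 8.17 and 8.92 CPM in TDonly cells, and 2.59, 5.32 and 3.74 CPM in ColGFP cells. Every DBL library of Chst4 (chr8:110029153-110039740, minus strand) was above every library of the other populations, which overlapped each other. The log2 fold change was 2.42 ± 0.47 (adjusted p = 0.00774) for DBL over ColGFP and 1.70 ± 0.45 (adjusted p = 0.0184) for DBL over TDonly. The second call was lost without DBL replicate 3 (adjusted p = 0.0514) or DBL replicate 4 (adjusted p = 0.0534). For TDonly over ColGFP it was 0.72 ± 0.47 (adjusted p = 0.235), which passed without TDonly replicate 1 (adjusted p = 0.00630). Chst4 made up 10.8% ± 1.29 of the Chst family's CPM per kb in DBL cells, 3.0% ± 1.75 in TDonly cells and 2.07% ± 0.602 in ColGFP cells. Of the marker lists, mesothelium was also highest in DBL cells: the sum over 6 markers was 549 to 632 CPM in DBL cells, 84.1 to 285 CPM in TDonly cells and 119 to 174 CPM in ColGFP cells, and 5 of the 6 passed as higher in DBL cells against each other population. The adventitial fibroblast sum was highest in DBL cells as well, though only 2 of its 7 markers passed against ColGFP cells. The part of either list in the Chst4 difference was not tested.

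Chst1 (chr2:92599707-92615250, plus strand), the galactose 6-O-sulphotransferase of keratan sulphate, was highest in TDonly cells. Chst1 had 18.5, 20.9 and 22.3 CPM in DBL cells, 44.3, 51.7 and 47.2 CPM in TDonly cells, and 10.3, 8.35 and 9.19 CPM in ColGFP cells. The 3 populations did not overlap, with ColGFP lowest. Chst1 had a log2 fold change of 1.14 ± 0.12 (adjusted p = 0.000260) for DBL over ColGFP, -1.21 ± 0.12 (adjusted p = 0.000120) for DBL over TDonly and 2.36 ± 0.12 (adjusted p = 7.35e-07) for TDonly over ColGFP. Its standard error was the smallest of the 16 genes shown by library in each comparison. Chst2, which like Chst4 acts on N-acetylglucosamine, averaged 38.4 ± 3.87 CPM in DBL cells, 33.6 ± 2.97 in TDonly cells and 39.4 ± 3.66 in ColGFP cells and passed in none. Chst5, a further N-acetylglucosamine enzyme, averaged 0.428 CPM or less.

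The last pair of Chst genes act on other glycans. Chst8 (chr7:34674468-34812711, minus strand) adds 4-O-sulphate to the N-glycans of pituitary hormones, and Chst10 makes the HNK-1 epitope of neural cells. Chst8 had 4.27, 3.33 and 2.58 CPM in DBL cells, 0.701, 1.56 and 1.32 CPM in TDonly cells, and 12.9, 13.2 and 11.7 CPM in ColGFP cells. ColGFP libraries were highest and TDonly libraries lowest, without overlap. The log2 fold change of Chst8 was -1.89 ± 0.27 (adjusted p = 0.00147) for DBL over ColGFP, 1.51 ± 0.29 (adjusted p = 0.00369) for DBL over TDonly and -3.40 ± 0.30 (adjusted p = 1.48e-05) for TDonly over ColGFP, the last being the largest fall among the 16 genes shown by library. Chst10 averaged 2.36 ± 0.312 CPM in DBL cells, 0.327 ± 0.248 in TDonly cells and 1.46 ± 0.515 in ColGFP cells. Low as it was, Chst10 passed as higher in DBL than in TDonly cells (log2 fold change 2.83 ± 0.50, adjusted p = 0.00231) and as lower in TDonly than in ColGFP cells (log2 fold change -2.15 ± 0.51, adjusted p = 0.00722).

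Too few counts were found for 4 genes: Gpc5 had 0 to 1 counts per library, Chst13 0 to 6, Hs3st4 0 to 7 and Hs3st5 0 to 10. These were not tested, and at this depth their absence cannot be shown. Exons of another gene also overlap a smaller part of 3 genes: 8.07% of the exon bases of Hs6st1 (Gm37335), 6.93% of Sdc3 (Gm26716) and 2.62% of Sulf2 (Ncoa3).

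The replicate 1 libraries carry a lower run of sample numbers from the sequencing core than the other 6 libraries, and the labels do not call this a batch. Differences were therefore also taken within each run. The 16 genes shown by library were chosen for passing at 2-fold or more over these same 9 libraries, which favours agreement in sign. The share of all genes that kept their sign was not counted. The 16 genes kept the sign of their difference between the replicate 1 libraries and the other libraries in 16 of 16 cases for DBL against ColGFP, 16 of 16 for DBL against TDonly and 15 of 16 for TDonly against ColGFP. The exception was Chst4, at -0.27 on the log2 scale between the replicate 1 libraries and 0.90 in the others. With the 6 later-numbered libraries alone, 2 a population, 8 genes that missed the threshold over all 9 passed for DBL over ColGFP. Over the whole table, 2543 genes then passed as higher and 1969 as lower, against 1250 and 1006 over all 9 libraries. Gpc3 then had a log2 fold change of 0.52 (adjusted p = 7.99e-06), beside 0.86 between the replicate 1 libraries. Gpc6 had 0.82 (adjusted p = 6.95e-07), beside 0.91. Sulf1 had 0.29 (adjusted p = 0.00459), beside 1.04, and Sulf2 had 0.93 (adjusted p = 6.85e-08), beside 1.42. Sdc2 had -0.48 (adjusted p = 0.000360), beside -0.86. Chst15 had -0.56 (adjusted p = 9.94e-05), beside -0.24, and Ndst1 had 0.39 (adjusted p = 0.000305), beside 0.05. Sdc1 differed in sign between the runs, at 0.52 (adjusted p = 0.00131) in the later-numbered libraries and -0.43 between the replicate 1 libraries. The size of the DBL over TDonly difference varied between the runs: it was 4.26 for Gpc3 between the replicate 1 libraries and 2.41 in the others.

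**Figure D5:**
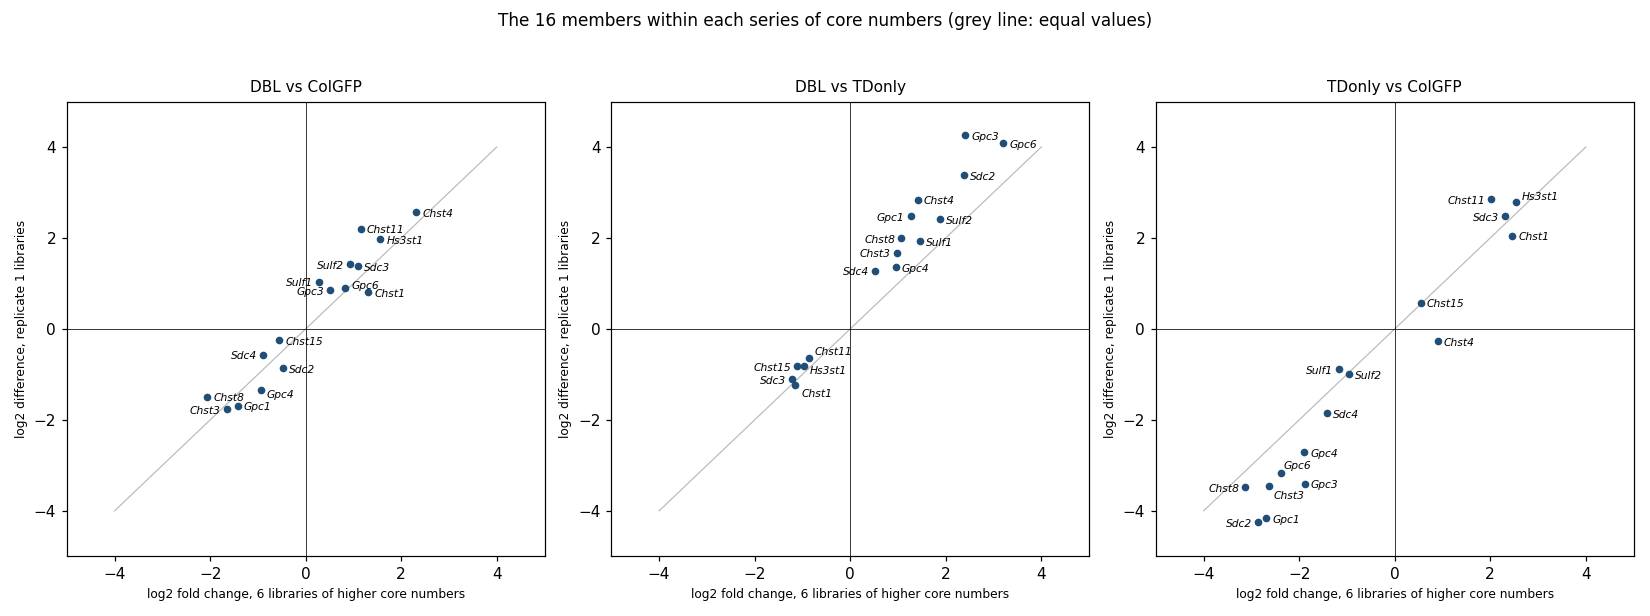
Log2 difference of the 16 genes between the replicate 1 libraries (vertical axis, 1 library a population, no test) against the log2 fold change in the other 6 libraries (horizontal axis), for each comparison, with a grey line of equal values. All points lie in the quadrants of equal sign except Chst4 for TDonly over ColGFP, at -0.27 in the replicate 1 libraries and 0.90 in the others.

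Other genes of the pathway were counted from 5 lists. Of 13 enzymes that build the linker and backbone of heparan sulphate, 1 was higher and 2 lower in DBL than in ColGFP cells, 4 were higher and 0 lower in DBL than in TDonly cells, and 1 was higher and 5 lower in TDonly than in ColGFP cells. The share passing was 23.1% for DBL against ColGFP, 30.8% for DBL against TDonly and 46.2% for TDonly against ColGFP, beside the 14.5%, 29.9% and 45.5% of all genes tested, so both shares that involve TDonly cells were near those of all genes. Xylt1, which attaches the first sugar to the core protein, averaged 27.0 ± 8.22 CPM in DBL cells, 6.81 ± 2.05 in TDonly cells and 19.2 ± 5.16 in ColGFP cells, with a log2 fold change of 1.99 ± 0.31 (adjusted p = 0.00111) for DBL over TDonly. Ext1, a subunit of the polymerase that lengthens the chain, averaged 103 ± 10.7 CPM in DBL cells, 67.5 ± 1.24 in TDonly cells and 155 ± 9.70 in ColGFP cells. Ext1 was lower in DBL than in ColGFP cells (log2 fold change -0.59 ± 0.10, adjusted p = 0.00311) and higher in DBL than in TDonly cells (log2 fold change 0.61 ± 0.10, adjusted p = 0.00126).

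Among 9 chondroitin and dermatan chain enzymes, 0 were higher and 1 lower in DBL than in ColGFP cells, 6 were higher and 1 lower in DBL than in TDonly cells, and 1 was higher and 6 lower in TDonly than in ColGFP cells. These are 11.1%, 77.8% and 77.8% of the list in that order, against 14.5%, 29.9% and 45.5% of all genes. Dse, which makes dermatan from chondroitin, averaged 82.7 ± 10.4 CPM in DBL cells, 18.8 ± 5.88 in TDonly cells and 104 ± 16.8 in ColGFP cells (log2 fold change 2.14 ± 0.23, adjusted p = 0.000187 for DBL over TDonly). Csgalnact1, which starts the chondroitin chain, went the other way, at 31.3 ± 3.16 CPM in DBL cells, 65.4 ± 6.98 in TDonly cells and 28.9 ± 1.11 in ColGFP cells (log2 fold change -1.06 ± 0.11, adjusted p = 0.000149 for DBL over TDonly). Of 6 genes that make or carry the sulphate donor, none passed between DBL and ColGFP cells (edgeR, with 2 at an unadjusted p under 0.05 and 0 passing with DESeq2), 2 were higher and 0 lower in DBL than in TDonly cells, and 2 were higher and 2 lower in TDonly than in ColGFP cells. For DBL against ColGFP that is 0% of the list, beside 14.5% of all genes. For DBL against TDonly it is 33.3% of the list, near the 29.9% of all genes, and for TDonly against ColGFP 66.7%, beside 45.5%. Papss2, a synthase of that donor, averaged 46.7 ± 9.16 CPM in DBL cells, 12.5 ± 3.10 in TDonly cells and 69.4 ± 8.50 in ColGFP cells (log2 fold change 1.91 ± 0.21, adjusted p = 0.000203 for DBL over TDonly). Slc26a2, a sulphate importer, passed only as higher in TDonly than in ColGFP cells (log2 fold change 0.64 ± 0.13, adjusted p = 0.00283).

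Of 8 tested genes for other heparan sulphate core proteins, 1 was higher and 1 lower in DBL than in ColGFP cells, 3 were higher and 2 lower in DBL than in TDonly cells, and 2 were higher and 5 lower in TDonly than in ColGFP cells. The shares were 25%, 62.5% and 87.5%, against 14.5%, 29.9% and 45.5% of all genes. Tgfbr3, the membrane proteoglycan betaglycan that presents transforming growth factor beta, averaged 620.4 ± 83.3 CPM in DBL cells, 303 ± 7.62 in TDonly cells and 907 ± 44.9 in ColGFP cells, and it passed in all 3 comparisons. Srgn, the granule proteoglycan of blood and endothelial cells, had the reverse order, at 36.7 ± 6.16 CPM in DBL cells, 93.6 ± 4.42 in TDonly cells and 15.4 ± 3.69 in ColGFP cells. Of 12 genes for breakdown and shedding of these chains, 1 was higher and 4 lower in DBL than in ColGFP cells, 7 were higher and 0 lower in DBL than in TDonly cells, and 0 were higher and 8 lower in TDonly than in ColGFP cells, or 41.7%, 58.3% and 66.7% of the list, against 14.5%, 29.9% and 45.5% of all genes. Hpse2, a relative of heparanase that binds heparan sulphate, averaged 1.71 ± 0.307 CPM in DBL cells, 0.361 ± 0.185 in TDonly cells and 10.6 ± 3.20 in ColGFP cells (log2 fold change -2.63 ± 0.33, adjusted p = 0.000670 for DBL over ColGFP). Arsb, a lysosomal sulphatase acting on dermatan and chondroitin sulphate, averaged 79.6 ± 6.26 CPM in DBL cells, 23.5 ± 6.90 in TDonly cells and 102 ± 9.50 in ColGFP cells (log2 fold change 1.76 ± 0.20, adjusted p = 0.000239 for DBL over TDonly).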

How the data were processed

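RNA-seq was performed on 9 libraries of sorted mouse lung cells, 3 a population. Groups and replicates follow the sample titles, and table columns were matched to samples by the sample numbers the labels give. Ribosomal RNA was depleted by a ribogone step, per the labels' series design text. The labels' protocols describe flash-frozen lungs and a TruSeq kit, and how that applies to sorted cells is not stated. The submitters' processing notes name cutadapt, TopHat, HTSeq and the mm10 build. The sources used here give no versions, annotation or strand setting.

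The authors deposited raw read counts per gene symbol, with 17820969 to 26147475 counts per library. Another 3 columns of the table, which fit no sample's labels, were left out.

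Genes with too few counts were removed by filterByExpr (minimum count 10), which left 15550 of 19348. TMM factors and the quasi-likelihood F test of edgeR 4.0.16 (R 4.3.3) were applied to 1 fit over all 9 libraries, two-sided, with 6 residual degrees of freedom, Benjamini-Hochberg adjustment over all genes tested and a threshold of 0.05. The fit was tested on simulated data. CPM are the counts scaled by edgeR, and CPM per kb divide by exon length from GENCODE M21. Values in every library are given for genes that passed at an absolute log2 fold change of at least 1 and reached 10 CPM in the highest population. Sdc1, Ndst1, Hs6st3 and Hs3st3a1 are also given by library, chosen after their values were seen. From each context list up to 4 genes by smallest adjusted p could be named. The genes studied and the lists were chosen with earlier results of these data known. Alternatives used DESeq2 1.42.0, limma 3.58.1 (voom), other scalings and filters, fewer groups, and each library left out in turn.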

Additional observations from a re-analysis of the deposited data

How the results depend on the processing

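The 16 genes at least 2-fold apart were chosen over these same libraries, so their signs had little room to change. None of the 16 changed sign in any of the 21 alternatives. Of the others given by library, Sdc1 did, at a log2 fold change of -0.11 for DBL over ColGFP without ColGFP replicate 3, against 0.13 over all 9 libraries. Leaving out each library in turn, the genes higher and lower numbered 5 to 8 and 6 to 8 for DBL over ColGFP, 13 to 16 and 3 to 6 for DBL over TDonly, and 5 to 10 and 14 to 17 for TDonly over ColGFP. Over all genes, the numbers higher and lower then ranged from 845 to 1488 and 581 to 1298 for DBL over ColGFP. They ranged from 2264 to 3098 and 1155 to 2019 for DBL over TDonly, and from 2439 to 3465 and 3263 to 3938 for TDonly over ColGFP. With the run of core numbers as a covariate, DBL exceeded ColGFP cells in 8 genes, beside 1751 of all genes (1250 without the covariate). With the 6 later-numbered libraries alone, 11 were higher in DBL than in ColGFP cells and 14 higher in TDonly than in ColGFP cells. The cause was not tested. In that subset the genes passing over the whole table for DBL over ColGFP were 2543 higher and 1969 lower, against 1250 and 1006 over all 9 libraries. For TDonly over ColGFP they were 4182 higher, against 3355 over all 9.

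The labels give no meaning to shared replicate numbers, and the numbers were not taken to pair the libraries. Correlations of deviations between same-numbered TDonly and ColGFP libraries were 0.125, 0.0744 and 0.117, each the highest for both its libraries in that comparison, a hint from the data and not from the design. DBL shares only numbers 1 and 3 with them, at 0.122 and 0.0150 against ColGFP libraries and 0.569 and 0.253 against TDonly libraries. DBL replicate 3 correlated more with TDonly replicate 2 (0.363), and TDonly replicate 3 more with DBL replicate 4 (0.401). With the replicate block, 6 genes were higher and 4 lower in DBL than in ColGFP cells, 14 higher and 4 lower in DBL than in TDonly cells, and 8 higher and 16 lower in TDonly than in ColGFP cells. Over all genes, 955 were then higher and 626 lower in DBL than in ColGFP cells, against 1250 and 1006 without the block. For DBL against TDonly they were 2156 and 1438, against 2692 and 1965 without it. For TDonly against ColGFP they were 3039 and 3444, against 3355 and 3727. This block groups libraries by title number, so DBL replicate 4 stands alone in it. By core number, DBL replicate 3 stands beside replicate 2 of the other populations, and DBL replicate 4 beside their replicate 3. A block by that order was not fitted, so the calls lost here do not test it. Under the replicate block Gpc1 (log2 fold change -1.55 beside -1.53 without it, adjusted p = 0.0509) and Sdc4 (0.0742) no longer passed for DBL over ColGFP, nor Chst11 (0.0943) for DBL over TDonly.

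Over the alternatives, the genes higher and lower in DBL than in ColGFP cells ranged from 1 to 2 and 1 to 3 among linker and chain enzymes, 0 and 0 to 4 among chondroitin chain enzymes, 0 to 1 and 0 to 1 among sulphate donor genes, 1 to 4 and 1 to 3 among other core proteins, and 1 and 3 to 6 among breakdown genes. Over all genes, the numbers higher and lower in this comparison themselves ranged from 845 to 2543 and 581 to 1969. Genes that passed in no comparison gained a call for TDonly over ColGFP with single libraries left out: Ndst2 and Chst2 without ColGFP replicate 1 (adjusted p = 0.0350 and 0.0429), and Hs6st2 and Hs3st6 without TDonly replicate 1 (0.0420 and 0.0285). Depth limits the genes under 1 CPM (Ndst3, Hs3st6, Chst5), and 3 libraries a population limit every standard error.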
